A study of Bos taurus with 138 samples.

Results

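FIGLA, NOBOX, SOHLH1, SOHLH2, LHX8 and FOXO3 encode transcription factors that form, activate or hold back the oocytes stored in the ovary. These 6 genes were taken by name for that role, and 4 of them, FIGLA, NOBOX, LHX8 and FOXO3, were measured among the 16706 genes of the count table. SOHLH1 and SOHLH2 were not analysed here. All 4 measured genes passed the filter on low counts and were tested among 14612 genes. Bovine oocytes at the germinal vesicle (GV) stage and the metaphase II (MII) stage, and embryos at the 2-cell, 8-cell, morula and blastocyst stages, were each profiled as 10 fractions (F1 to F10) of 2 sucrose gradients, A and B, and as 3 whole transcriptomes, A, B and C. The 120 fraction libraries held 1229382 to 17342859 counts, with a median of 10334106.

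Every group was made of wild-type Bos taurus cells. GV oocytes came from slaughterhouse ovaries, MII oocytes had been matured in vitro, and the embryos had been fertilized in vitro with semen of a single bull and cultured. Each library was a pool of oocytes or embryos, so differences between individuals cannot be seen, and p-values measure the spread between pools that may share a collection batch. Before collection, the living oocytes and embryos were treated in culture with cycloheximide, which stalls ribosomes on the mRNA. It was also in the lysis buffer and the sucrose, and this was shared by all gradients. F1 and F2 hold free RNA, F3 to F5 mRNA with single ribosomes (monosomes), F6 and F7 an intermediate and F8 to F10 mRNA with several ribosomes (polysomes). For tests, F8 to F10 were summed within a gradient to give 2 polysome pools per stage.

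FIGLA is a basic helix-loop-helix (bHLH) protein that pairs with E-proteins such as TCF3 and switches on the zona pellucida genes. NOBOX is a homeobox protein needed for follicles to leave the primordial state, and it is known to bind the promoters of GDF9 and POU5F1. LHX8 is a LIM-homeobox protein that acts with the germ cell bHLH factors SOHLH1 and SOHLH2 in early follicles. FOXO3 is a forkhead protein that keeps primordial follicles dormant until PI3K and AKT signalling sends it out of the nucleus. The roles named here fall mainly before the oocyte reaches the GV stage sampled, and roles of these factors at the sampled stages were not tested. Transcription is low from the fully grown oocyte until the embryonic genome is activated, which in cattle occurs around the 8-cell stage.

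The stage labels were checked against marker genes. The summed level of 5 oocyte markers (GDF9, BMP15, ZP3, MOS and DAZL) lay between 6660 and 9438 CPM (counts scaled to a common library total) in GV transcriptomes and between 14.3 and 93.9 CPM in morula transcriptomes. The summed level of 8 blastocyst and trophectoderm markers lay between 54.7 and 65.1 CPM in GV and between 5420 and 6333 CPM in blastocyst transcriptomes. The 15 listed genes of cumulus and granulosa cells, the somatic cells that surround the oocyte, summed to 548 to 688 CPM in GV, 544 to 665 in MII, 376 to 415 in 2-cell and 316 to 1383 in 8-cell transcriptomes. FOXL2 was at 0 in the GV, MII and 2-cell transcriptomes, and it was the only listed gene at 0 in GV and in MII. Within the list, mean STAR went from 543 CPM in GV to 179 in MII, whereas HAS2 went from 33.1 to 180 and TNFAIP6 from 0.0506 to 124. Of 5 listed sperm markers, the protamine genes PRM1 and PRM2 were at 0 in every GV, MII, 2-cell and 8-cell transcriptome. In morulae ODF1 was the only one at 0 in every transcriptome, and in blastocysts SMCP. The 5 summed to 0.203 to 0.615 CPM in GV, 0.119 to 0.3435 in MII, 0 to 0.376 in 2-cell and 0.428 to 0.538 in 8-cell transcriptomes. Their sums were 3.17 to 5.45 CPM in morula and 1.66 to 5.60 CPM in blastocyst transcriptomes. The 2 gradients of a stage correlated less after the 2-cell stage: the median Pearson's r over the 10 fractions (across genes, which are not independent replicates) was 0.960 in GV oocytes and 0.754 in 8-cell embryos.

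The first question was how the measured level of each mRNA changed from oocyte to blastocyst. In the transcriptome, all 4 genes fell from the 2-cell to the 8-cell stage. FIGLA had already fallen by the MII stage, FOXO3 rose at that step, and NOBOX rose from MII to 2-cell. Levels are CPM scaled with TMM factors, so each is a share of its own library, and a fall in a share cannot be told apart from a rise of other mRNAs. In such pools, fewer cells of a type and less RNA per cell cannot be told apart either. The libraries prime on poly(A) tails, so a change in tail length cannot be told apart from a change in the amount of an mRNA.

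**Figure D1:**
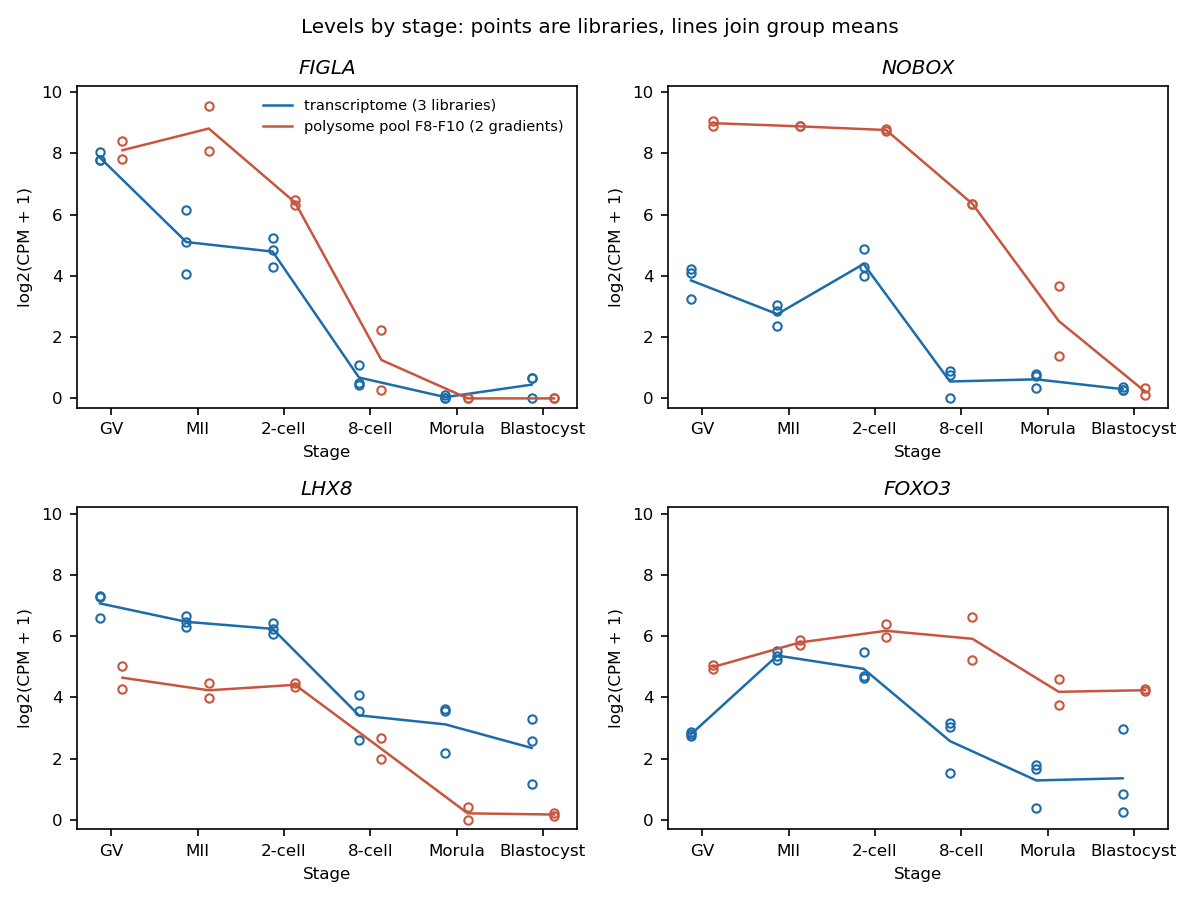
Level of FIGLA, NOBOX, LHX8 and FOXO3 on a log2(CPM + 1) scale against stage, with a point for each of the 3 transcriptomes (blue) and each of the 2 polysome pools (red) and lines joining group means of the plotted values. NOBOX pools lie above NOBOX transcriptomes from GV to morula, LHX8 pools lie below LHX8 transcriptomes from GV to 2-cell, and FIGLA pools are at 0 in morulae and blastocysts.

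FIGLA in GV transcriptomes A, B and C was at 217, 262 and 217 CPM. In MII oocytes it was at 69.6, 33.6 and 15.7 CPM. In 2-cell embryos it was at 18.6, 28.1 and 36.5 CPM. All GV libraries lay above all MII libraries, whereas MII and 2-cell libraries overlapped. From 8-cell onwards no library passed 1.13 CPM: the 8-cell libraries held 0.428, 0.359 and 1.13 CPM, the morula libraries 0, 0.0894 and 0 CPM, and the blastocyst libraries 0.588, 0 and 0.600 CPM. A morula library held at most 1 count of FIGLA and a blastocyst library at most 3, so these stages are at the limit of detection.

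The mean of FIGLA was 232 CPM ± 26.1 (SD, n = 3) in GV and 39.6 ± 27.5 in MII oocytes. It fell by 2.55 on the log2 scale from GV to MII (SE 0.66, edgeR quasi-likelihood test, adjusted p = 0.00774) and fell by 5.42 from 2-cell to 8-cell (SE 0.81, adjusted p = 8.67e-06). Without the MII transcriptome C, which was the lowest, the first change was -2.17 with an adjusted p of 0.0553, and without the MII transcriptome A it was -3.23. The median of FIGLA over all gradient fractions went the other way, from 198 CPM in GV to 494 CPM in MII. A loss of FIGLA mRNA at maturation was not tested apart from the kind of library.

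NOBOX had lower shares of the transcriptome. Its levels were 17.7, 8.41 and 16.1 CPM in GV, 4.12, 7.30 and 6.19 CPM in MII and 18.7, 15.0 and 28.3 CPM in 2-cell libraries. Ranges of 2-cell and GV overlapped, and both lay above the MII range. In 8-cell embryos it was at 0.686, 0 and 0.870 CPM, in morulae at 0.747, 0.268 and 0.646 CPM, and in blastocysts at 1 count in each library.

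NOBOX rose from 5.87 CPM ± 1.61 in MII to 20.6 CPM ± 6.87 in 2-cell embryos (SD, n = 3), a log2 difference of 1.81 (SE 0.54, adjusted p = 0.0265). This call was lost when any of the 3 MII transcriptomes or the 2-cell transcriptome C was left out, with adjusted p-values of 0.127, 0.0533, 0.0866 and 0.127. From 2-cell to 8-cell NOBOX fell by 5.29 (SE 0.67, adjusted p = 6.71e-07).

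LHX8 did not pass the test at either step up to the 2-cell stage (log2 differences -0.64 and -0.23, adjusted p = 0.508 and 0.888). It was at 159, 95.5 and 155 CPM in GV, 99.4, 87.5 and 77.0 CPM in MII and 66.6, 73.5 and 84.3 CPM in 2-cell transcriptomes, with overlap between each stage and the next, while all GV libraries lay above all 2-cell libraries. It was then at 5.14, 10.7 and 15.9 CPM in 8-cell embryos, 3.55, 10.8 and 11.2 CPM in morulae and 8.82, 1.24 and 5.002 CPM in blastocysts. Every library of the first 3 stages lay above every library of the last 3, and the last 3 stages overlapped each other. The fall from 2-cell to 8-cell, from 74.8 CPM ± 8.90 to 10.6 ± 5.39 (SD, n = 3), was 2.82 on the log2 scale (log2 difference -2.82, SE 0.61, adjusted p = 0.000515).

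FOXO3 showed the opposite order at maturation. GV transcriptomes held 5.62, 5.95 and 6.28 CPM, MII transcriptomes 39.7, 36.5 and 44.8 CPM, and 2-cell transcriptomes 43.7, 24.9 and 23.5 CPM. Every MII library lay above every GV library, and MII overlapped 2-cell. Later levels were 7.11, 1.88 and 8.00 CPM in 8-cell embryos, 2.15, 2.50 and 0.323 CPM in morulae, and 6.76, 0.207 and 0.800 CPM in blastocysts, which overlapped each other.

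The rise of FOXO3 from GV to MII was 2.76 on the log2 scale (SE 0.72, adjusted p = 0.00778), and the change from 2-cell to 8-cell was -2.44 (SE 0.71, adjusted p = 0.00633). HAS2, a gene that expanding cumulus cells use to make hyaluronan, had a similar course over the 18 transcriptomes (mean 33.1 CPM in GV, 179.9 in MII, 103.9 in 2-cell and 24.5 in 8-cell), while the summed cumulus list given above had overlapping ranges in GV and MII. Gene by gene, 6 of the 14 tested genes of that list rose from GV to MII and 1 fell. The median log2 difference was 2.03, where 7.72% of all genes rose and 10.9% fell. From MII to 2-cell 5 fell and 0 rose, where 6.62% of all genes fell and 6.50% rose. From 2-cell to 8-cell, where FOXO3 fell, 7 of the 14 rose and 3 fell, with a median of 5.105. At that step 27.7% of all genes rose and 24.6% fell. The part of somatic cells in the FOXO3 result was not tested.

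Read against all genes, 2 of the 4 changed from GV to MII, 1 up and 1 down, where 7.72% of the 14612 genes rose and 10.9% fell. From MII to 2-cell 1 of 4 rose, where 6.50% of all genes did. From 2-cell to 8-cell 4 of 4 fell, where 24.6% of all genes fell and 27.7% rose, and the median log2 difference of the 4 was -4.05 against 0.03 over all genes. Leaving out any of the 30 libraries in turn kept all 4 of these falls below the threshold, with log2 values from -6.11 to -2.02. Without the 8-cell transcriptome C, the FIGLA fall was -6.11.

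None of the 4 passed the edgeR test from 8-cell to morula, where 7.39% of genes rose and 8.04% fell. At an unadjusted p below 0.05 there were 2, FIGLA (log2 difference -4.06, adjusted p = 0.0606, from at most 13 counts) and FOXO3 (-1.76, adjusted p = 0.104), and both DESeq2 and the likelihood ratio test of edgeR called these 2. From morula to blastocyst, where 10.8% rose and 12.5% fell, no member passed the edgeR test, none had an unadjusted p below 0.05, and the other 2 tools called none.

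The next question was whether the mRNAs on polysomes followed the transcriptome. In the polysome pools, FIGLA, NOBOX and LHX8 were lower in 8-cell than in 2-cell embryos, as in the transcriptome, and were lower again in morulae. FOXO3 differed, since its pools in 8-cell embryos overlapped those in 2-cell embryos. Neither FIGLA nor FOXO3 passed the test from GV to MII in the pools.

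FIGLA in pools A and B was at 223 and 336 CPM in GV, 271 and 741 CPM in MII, 78.2 and 88.6 CPM in 2-cell and 0.205 and 3.71 CPM in 8-cell embryos, and at 0 in both pools of morulae and of blastocysts. MII overlapped GV, and both lay above 2-cell. The change from MII to 2-cell was -2.60 (SE 0.80, adjusted p = 0.0460). Of the 30 fits without 1 library, 19 lost that call, and without the MII pool B the value was -1.71 with an adjusted p of 0.353.

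From 2-cell to 8-cell FIGLA in the pools fell by 5.38 on the log2 scale (SE 0.92, adjusted p = 7.45e-05), and the 8-cell pools differed, so that the value was -4.48 without pool A and -8.62 without pool B. The morula pools were at 0, which allows up to 3 counts in each library, or 0.115 CPM on average, so the 8-cell mean of 1.96 CPM was at least 16.98-fold higher than the morula level (adjusted p = 0.000485). The 8-cell pools held 5 and 137 counts, so that the limit was 1.78-fold with pool A alone and 32.2-fold with pool B alone (adjusted p = 0.0366 without pool B and 2.37e-05 without pool A).

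NOBOX kept a similar share of the polysome libraries from GV to 2-cell. Its pools held 477 and 537 CPM in GV, 472 and 470 CPM in MII and 440.9 and 425.9 CPM in 2-cell embryos. These ranges did not overlap and ran downwards in that order, but neither step passed the test (adjusted p = 1.0 and 0.992). The pools then held 80.5 and 81.1 CPM in 8-cell embryos, 1.59 and 11.8 CPM in morulae and 0.0870 and 0.255 CPM in blastocysts, without overlap.

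NOBOX in the pools fell by 2.42 on the log2 scale from 2-cell to 8-cell (SE 0.66, adjusted p = 0.00434), fell by 3.58 from 8-cell to morula (SE 0.69, adjusted p = 0.000387) and fell by 5.24 from morula to blastocyst (SE 0.85, adjusted p = 0.000348). The morula pools set the size of the last 2 steps: without morula pool A they were -2.76 and -6.03, and without pool B -5.64 and -3.15. Without the blastocyst pool B, the last step was -6.15, and with the polysome pools fitted alone it was -5.14 and no longer passed (adjusted p = 0.0534).

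LHX8 was at 18.2 and 31.5 CPM in GV, 21.3 and 14.8 CPM in MII and 19.4 and 21.2 CPM in 2-cell pools, which all overlapped. It was at 5.33 and 2.93 CPM in 8-cell pools, at 0 and 0.345 CPM in morula pools and at 0.174 and 0.0851 CPM in blastocyst pools. The step from 2-cell to 8-cell was -2.30 (SE 0.73, adjusted p = 0.0133), and without the 8-cell pool B it was -1.92 with an adjusted p of 0.0701. It also failed to pass with the pools fitted alone (-2.23, adjusted p = 0.223) and with pools of F7 to F10 (-1.50, adjusted p = 0.106). From 8-cell to morula it was -4.36 (SE 0.86, adjusted p = 0.000485), with 12 counts in morula pool B and 0 in pool A. That last value was -3.54 without morula pool A and -9.16, against a pool at 0, without pool B. With pools of F9 and F10 it was -2.10 (adjusted p = 0.110), and with the pools fitted alone -4.50 (adjusted p = 0.0742), neither past the threshold.

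FOXO3 was at 32.5 and 29.4 CPM in GV, 51.7 and 57.4 CPM in MII, 61.1 and 83.1 CPM in 2-cell, 97.4 and 35.9 CPM in 8-cell, 12.5 and 23.4 CPM in morula and 17.5 and 18.1 CPM in blastocyst pools. No step between consecutive stages passed the test for FOXO3 on polysomes. From 2-cell to 8-cell the log2 difference was -0.11 (SE 0.82, adjusted p = 0.955), and from 8-cell to morula it was -1.89 (SE 0.85, adjusted p = 0.0816), a step that DESeq2 (adjusted p = 0.033) and the likelihood ratio test (adjusted p = 0.0454) called.

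Of the 4 members, 0 changed on polysomes from GV to MII in the edgeR test, 0 had an unadjusted p below 0.05 and 0 were called by the other 2 tools, where 3.08% of all genes rose and 2.35% fell. From MII to 2-cell 1 fell, against 5.21% of all genes. From 2-cell to 8-cell 3 fell, against 25.7% of all genes, and none rose, against 21.6%. From 8-cell to morula 3 fell, against 18%, and from morula to blastocyst 1 fell, against 8.37%.

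Polysome pools were then set against the transcriptome of the same stage. NOBOX was higher in the pools and LHX8 lower in them at most stages, FOXO3 was higher at 4 stages and FIGLA was higher in MII oocytes. A higher level means a larger share of the polysome library than of the whole transcriptome.

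**Figure D2:**
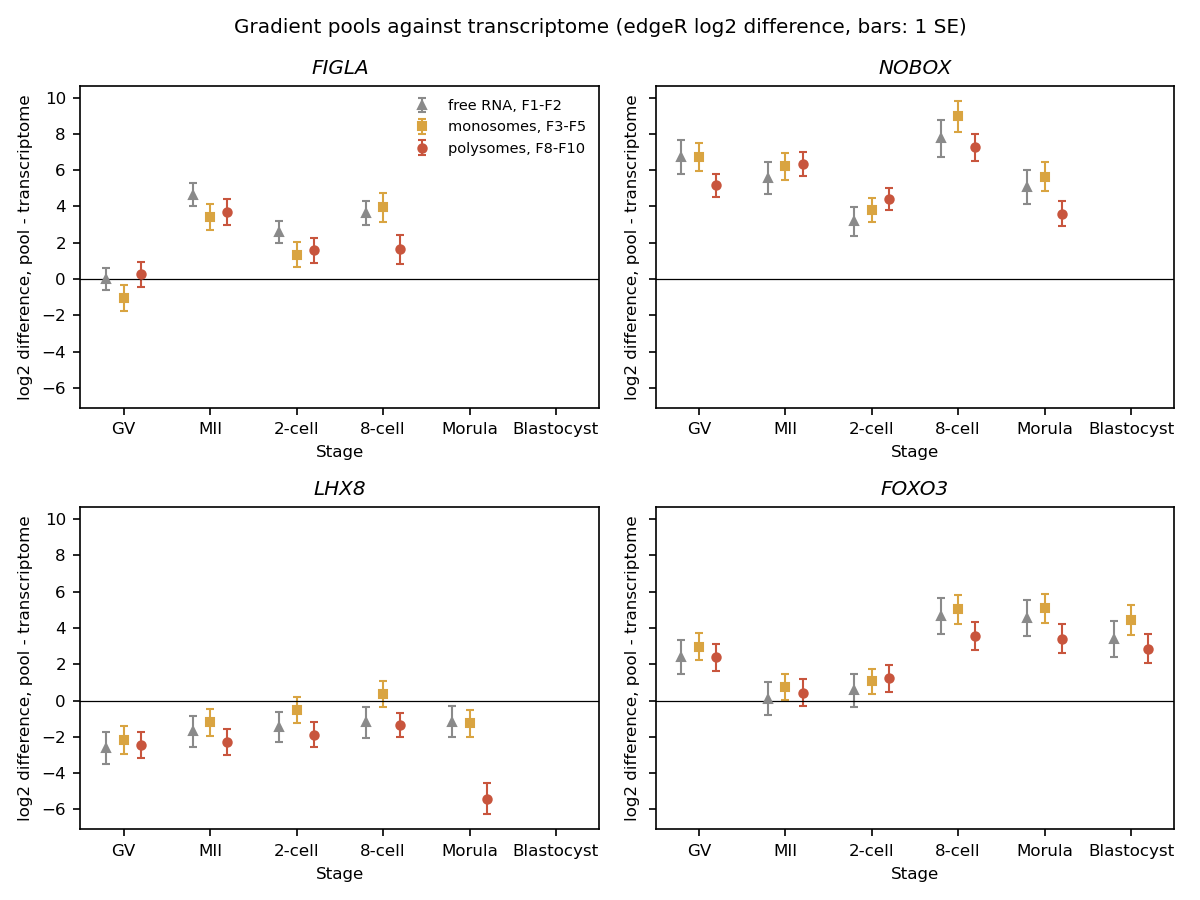
Log2 difference between a gradient pool and the transcriptome by stage, for free RNA fractions (F1 and F2, triangles), monosome fractions (F3 to F5, squares) and polysome fractions (F8 to F10, circles), with bars of 1 SE from edgeR. NOBOX is above 0 in all 3 classes from GV to morula and LHX8 polysomes are below 0. FIGLA in morulae and blastocysts, and NOBOX and LHX8 in blastocysts, are left out because a group held 0 or few counts.

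For NOBOX the mean was 507 CPM ± 42.3 (SD, n = 2) in GV pools and 14.1 CPM ± 4.97 (SD, n = 3) in GV transcriptomes. Log2 differences were 5.17 in GV (SE 0.63, adjusted p = 5.19e-07), 6.32 in MII (adjusted p = 1.91e-08), 4.39 in 2-cell (adjusted p = 1.97e-06), 7.26 in 8-cell (adjusted p = 1.70e-08) and 3.61 in morulae (adjusted p = 0.000128). Every pool lay above every transcriptome at these 5 stages. The 8-cell transcriptomes A, B and C held 8, 0 and 10 counts of NOBOX and the morula transcriptomes 8, 3 and 6. Without morula pool B the morula value was 1.52 with an adjusted p of 0.0675, and without pool A it was 4.39. In blastocysts the pools held 2 and 6 counts and each transcriptome held 1, and no difference was detectable at this depth.

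The excess of NOBOX was not limited to the polysomes. When F1 and F2, or F3 to F5, were summed in place of F8 to F10, the log2 difference from the transcriptome was 6.73 and 6.73 in GV, 5.55 and 6.21 in MII, 3.19 and 3.82 in 2-cell, 7.75 and 8.97 in 8-cell and 5.07 and 5.65 in morulae. All 20 fraction libraries of GV, MII, 2-cell and 8-cell embryos lay above all 3 transcriptomes of their stage. These comparisons were added after the values were seen. Gradient libraries as a kind thus held a larger share of NOBOX than whole-cell libraries did, the kind of library and the polysome class cannot be told apart in the contrast with the transcriptome, and the cause was not tested.

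LHX8 showed the reverse. Its mean in GV was 24.8 CPM ± 9.42 (SD, n = 2) in pools and 137 CPM ± 35.7 (SD, n = 3) in transcriptomes. Log2 differences were -2.46 in GV (SE 0.70, adjusted p = 0.00707), -2.28 in MII (adjusted p = 0.00745), -1.88 in 2-cell (adjusted p = 0.0246), -5.41 in morulae (adjusted p = 1.97e-05) and -5.18 in blastocysts (adjusted p = 8.80e-05). In 8-cell embryos it was -1.36 (adjusted p = 0.0859), where both DESeq2 and the likelihood ratio test called it. Every pool lay below every transcriptome in GV, MII, 2-cell, morulae and blastocysts, and the 8-cell groups overlapped. Pools A and B held 0 and 12 counts of LHX8 in morulae and 4 and 2 in blastocysts. The sizes of the morula and blastocyst differences thus rest on few counts.

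Single libraries decided some LHX8 calls. The GV call was lost without pool A (adjusted p = 0.0909), the MII call without pool B (adjusted p = 0.0688), and the 2-cell call without pool A, pool B or transcriptome C (adjusted p = 0.118, 0.0984 and 0.0529) or with pools of F7 to F10 (-1.36, adjusted p = 0.106). The morula value was -4.62 without pool A and -10.24, against a pool at 0, without pool B. The blastocyst value was -4.53 without transcriptome A. In GV oocytes LHX8 was lower than in the transcriptome in free RNA (log2 difference -2.62, adjusted p = 0.0158) and in monosome fractions (-2.17, adjusted p = 0.0209) as well. Free RNA and monosomes did not pass in MII oocytes (-1.69 and -1.21, adjusted p = 0.0906 and 0.162) or in 2-cell embryos (-1.47 and -0.54, adjusted p = 0.160 and 0.558). All 20 fractions of LHX8 nevertheless lay below all 3 transcriptomes in GV, MII and 2-cell cells. The kind of library and the polysome class thus cannot be told apart for LHX8 in the contrast with the transcriptome. In morulae LHX8 was at -1.18 in free RNA (adjusted p = 0.263) and -1.25 in monosomes (adjusted p = 0.155) against the -5.41 of polysomes. Morula F2 and F3 held 73 and 160 counts in gradient B but 0 and 4 in gradient A. In blastocysts free RNA was at -8.76 (edgeR adjusted p = 0.00375), with 0 counts in F1 and F2 of both gradients. Blastocyst monosomes were at -4.84 (adjusted p = 0.00107), against the -5.18 of polysomes.

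FOXO3 in the pools was higher than in the transcriptome by 2.38 in GV (SE 0.75, adjusted p = 0.0145), 3.55 in 8-cell (adjusted p = 0.000467), 3.42 in morulae (adjusted p = 0.000996) and 2.86 in blastocysts (adjusted p = 0.0067) on the log2 scale. It was at 0.43 in MII (adjusted p = 0.642) and 1.23 in 2-cell embryos (adjusted p = 0.166). The pools lay above all transcriptomes at every stage, the MII and 2-cell stages included. Without GV pool A the GV value was 2.30 with an adjusted p of 0.0543, without 8-cell pool A the 8-cell value was 2.66, and the blastocyst value was 5.12 without transcriptome A and 2.26 without transcriptome B. With pools of F9 and F10 the blastocyst value was 1.99 and did not pass (adjusted p = 0.0838). In 8-cell embryos FOXO3 was higher still in free RNA (4.68, adjusted p = 0.000282) and monosomes (5.02, adjusted p = 5.15e-06) than in the transcriptome. These 2 classes were at 2.39 and 2.97 in GV (adjusted p = 0.0317 and 0.00151) and at 4.56 and 5.09 in morulae (adjusted p = 0.000787 and 1.09e-05). In blastocysts they were at 3.39 and 4.44 (adjusted p = 0.0150 and 0.000137). The FOXO3 excess was thus not limited to polysomes, and the kind of library and the polysome class cannot be told apart here either.

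FIGLA in MII pools exceeded the transcriptome by 3.67 on the log2 scale (SE 0.72, adjusted p = 0.000164). The value was 2.74 without pool B and 4.32 without transcriptome A. In free RNA fractions of MII oocytes it was 4.65 (adjusted p = 2.23e-06) and in monosomes 3.43 (adjusted p = 0.000291), so this excess too was present across the gradient. In GV oocytes the difference was 0.27 (adjusted p = 0.804) and in 2-cell embryos 1.59 (adjusted p = 0.0575). In 8-cell embryos it was 1.63 for polysomes (adjusted p = 0.0868), 3.64 for free RNA (adjusted p = 8.32e-05) and 3.95 for monosomes (adjusted p = 0.000177). In blastocysts edgeR called FIGLA lower in the pools (adjusted p = 0.0417), but those pools were at 0 and the transcriptomes held 2, 0 and 3 counts, so no fold is given, and 6 of 30 fits without 1 library lost the call.

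Counting that blastocyst call, 16 of the 24 comparisons of a member with its transcriptome passed the test. In GV 2 were higher and 1 lower, where 22.2% of all genes were higher and 17.7% lower. In MII 2 were higher and 1 lower, against 30.8% and 26.7%. In 2-cell embryos 1 was higher and 1 lower, against 29.1% and 21.9%. In 8-cell embryos 2 were higher and none lower, against 28.0% and 31.0%. In morulae 2 were higher and 1 lower, against 26.5% and 25.2%, and in blastocysts 1 was higher and 2 lower, against 20% and 20.1%.

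Whether the difference between polysomes and transcriptome itself changed between stages was tested as an interaction. It rose for FIGLA from GV to MII by 3.41 on the log2 scale (SE 1.01, adjusted p = 0.0320), as the transcriptome level fell and the pools did not change past the test; 7.14% of all genes rose in this way. For NOBOX it rose from 2-cell to 8-cell by 2.86 (SE 0.90, adjusted p = 0.0379), against 3.45% of all genes, and then fell by 3.65 to the morula (SE 1.01, adjusted p = 0.0196). For LHX8 it fell by 4.05 from 8-cell to morula (SE 1.02, adjusted p = 0.0106), and 5.41% of all genes fell at that step. FIGLA against its transcriptome also went from 0.007 in GV to 4.65 in MII in free RNA, and from -1.04 to 3.43 in monosomes. NOBOX went from 3.19 in 2-cell to 7.75 in 8-cell and 5.07 in morula free RNA. In monosomes NOBOX was at 3.82, 8.97 and 5.65. LHX8 from 8-cell to morula was at -1.21 and -1.18 in free RNA and at 0.35 and -1.25 in monosomes. The FIGLA and NOBOX shifts were thus not limited to polysomes.

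Several of these calls depended on single libraries. Leaving out 1 library lost the FIGLA call in 8 of 30 fits, with 2.51 without MII pool B (adjusted p = 0.192) and 4.09 without MII transcriptome A, and pools of F7 to F10 lost it too (3.28, adjusted p = 0.0530). Leaving out 1 library lost the 2-cell to 8-cell call of NOBOX in 7 of 30 fits, with the highest adjusted p, 0.114, without 2-cell pool B. The 8-cell to morula call of NOBOX was lost without morula transcriptome A (adjusted p = 0.0688), and its value was -2.84 without morula pool A and -5.71 without pool B. The value for LHX8 was -3.23 without morula pool A and -8.85, against a pool at 0, without pool B.

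From MII to 2-cell no interaction passed the edgeR test among the members, where 0.725% of all genes rose and 1.08% fell. At an unadjusted p below 0.05 there were 2 (FIGLA at -2.09 and NOBOX at -1.93), and neither DESeq2 nor the likelihood ratio test called any. From morula to blastocyst, against 6.04% up and 6.23% down among all genes, none passed edgeR, 1 had an unadjusted p below 0.05 (NOBOX at -3.998) and both other tools called it.

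The position of each mRNA along the gradient was read within a stage, on CPM with TMM factors over the fraction and transcriptome libraries together, a scale that differs slightly from that of the levels above. The trend was measured as Spearman's rank correlation of a gene's level with fraction number in the 16 libraries of F3 to F10, both gradients together, with p-values from 100000 permutations. A positive value means a larger share in heavier fractions. Neighbouring fractions of a gradient share their source, which these p-values do not take into account.

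**Figure D3:**
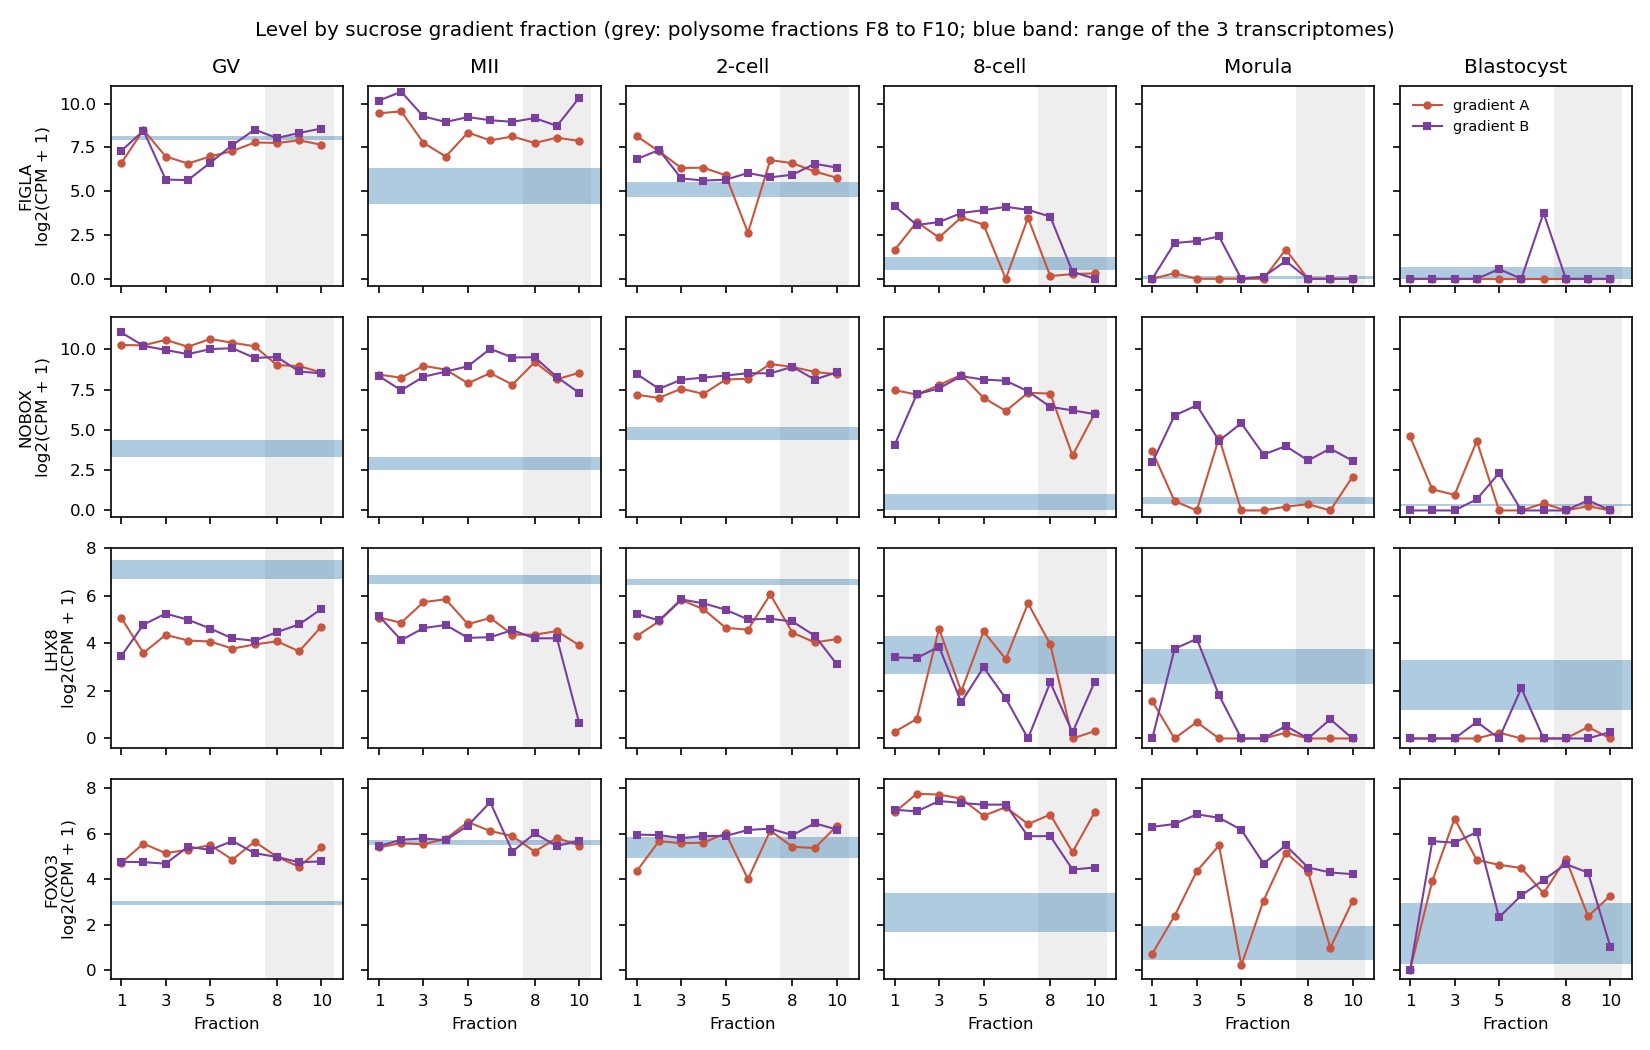
Level on a log2(CPM + 1) scale against fraction number for each gene (rows) and stage (columns), with gradient A in red circles and gradient B in purple squares, F8 to F10 shaded grey and the range of the 3 transcriptomes as a blue band. FIGLA climbs from F3 to F10 in GV oocytes, NOBOX declines in GV oocytes and 8-cell embryos, LHX8 declines in MII oocytes and 2-cell embryos and FOXO3 declines in 8-cell embryos.

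FIGLA held larger shares of the heavier fractions in GV oocytes. In gradient A it was at 125, 94.4, 125, 155, 219, 214, 238 and 200 CPM from F3 to F10. In gradient B the same fractions held 49.7, 48.6, 97.5, 197, 364, 261, 319 and 380 CPM. Both gradients were lowest in F4 and had all of F7 to F10 above F3 to F5. The rank correlation was 0.846 (permutation test, adjusted p = 0.00124), and 0.810 and 0.905 in gradients A and B alone. F2 held 361 and 349 CPM, so a second high point lay in the free RNA. Over F1 to F10 the rank correlation was 0.471 and did not pass (permutation adjusted p = 0.0980).

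FIGLA in MII oocytes had no trend (rank correlation 0.041, permutation adjusted p = 0.936). Its highest fraction was F2 in gradient A, at 750 CPM, and F2 in gradient B, at 1627 CPM. Free RNA held a mean of 723 CPM in A and 1390 CPM in B against 237 and 760 CPM in F8 to F10. Every one of the 20 MII fractions lay above all 3 MII transcriptomes.

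In 8-cell embryos FIGLA was at 4.13 to 10.3 CPM in F3 to F5 of gradient A and 8.42 to 14.1 CPM in gradient B. It was at 0.205 and 0.240 CPM in F9 and F10 of gradient A and 0.318 and 0 CPM in those of gradient B. The trend over F3 to F10 was -0.444 and did not pass the test (permutation adjusted p = 0.230). F6 of gradient A was at 0, and gradient B ran from 8.42 CPM in F3 to 16.2 CPM in F6 and 10.7 CPM in F8. In blastocysts 18 of 20 fractions were at 0, and gradient B held 0.470 CPM in F5 and 12.5 CPM in F7.

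NOBOX in GV oocytes was spread over the whole gradient and was lower on polysomes. In gradient A it ran from 1537 CPM in F3 over 1598 CPM in F5 and 1165 CPM in F7 to 376 CPM in F10, and in gradient B from 995 CPM in F3 over 1033 CPM in F5 and 705 CPM in F7 to 363 CPM in F10. The rank correlation was -0.769 (permutation adjusted p = 0.00422), and -0.810 and -0.762 in A and B alone. F8 to F10 held 0.325 times the level of F3 to F5 in A and 0.523 times in B.

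In 2-cell embryos the slope of NOBOX was the other way. Gradient A rose from 187 CPM in F3 to 544 CPM in F7 and 348 CPM in F10, and gradient B from 276 CPM in F3 to 482 CPM in F8 and 381 CPM in F10. The rank correlation was 0.633 (permutation adjusted p = 0.0486). With ranks taken within each gradient the adjusted p was 0.0514, so this call lies at the threshold. In MII oocytes the rank correlation was -0.231 (permutation adjusted p = 0.579), with the highest level in F8 of gradient A and F6 of gradient B.

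In 8-cell embryos NOBOX peaked in F4 of both gradients, at 342 and 322 CPM. F10 held 64.3 and 62.1 CPM. Over F3 to F10 the rank correlation was -0.799 (permutation adjusted p = 0.00803), and the level of F8 to F10 was 0.329 and 0.279 times that of F3 to F5. Over F1 to F10 it was -0.417 and did not pass (permutation adjusted p = 0.248). Without TMM factors it was -0.657 over F3 to F10 and did not pass either (permutation adjusted p = 0.0530). In morulae the gradients differed, with 0 to 21.7 CPM over the fractions of A and 6.90 to 91.2 CPM over those of B, and no trend passed the test (rank correlation -0.283, permutation adjusted p = 0.681).

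LHX8 declined from F3 to F10 in MII oocytes and 2-cell embryos. In MII oocytes F3 and F4 held 52.3 and 56.7 CPM in gradient A and 23.9 and 26.4 CPM in gradient B, and F10 held 14.1 and 0.564 CPM. The rank correlation was -0.775 (permutation adjusted p = 0.00844). In 2-cell embryos F3 held 55.7 and 56.5 CPM and F10 held 17.1 and 7.65 CPM, with a rank correlation of -0.811 (permutation adjusted p = 0.00626). The highest 2-cell fraction of gradient A was F7, at 65.6 CPM, and over F1 to F10 the 2-cell trend did not pass (-0.51, permutation adjusted p = 0.123). In GV oocytes the profile was flat, with 10.0 to 42.5 CPM over 20 fractions and a rank correlation of -0.024 (permutation adjusted p = 0.962). All 20 fractions of GV, MII and 2-cell cells lay below all 3 transcriptomes.

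In 8-cell embryos LHX8 scattered between 0 and 50.3 CPM (rank correlation -0.426, permutation adjusted p = 0.253). In morulae 12 of 20 fractions were at 0, and the levels above 10 CPM were F2 and F3 of gradient B, at 12.6 and 17.3 CPM. These low counts leave the later profiles of LHX8 undefined at this depth.

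FOXO3 was spread over the fractions up to the 2-cell stage, with rank correlations of -0.260 in GV, -0.302 in MII and 0.444 in 2-cell cells, and none passed the permutation test (adjusted p = 0.460, 0.446 and 0.215). In 8-cell embryos it declined towards the polysomes, from 211 CPM in F3 to 35.5 CPM in F9 and 123 CPM in F10 of gradient A, and from 173 CPM in F3 to 20.5 CPM in F9 and 21.8 CPM in F10 of gradient B. The rank correlation was -0.828 (permutation adjusted p = 0.00448), and -0.619 and -0.929 in A and B alone.

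FOXO3 remained detectable in most fractions of morulae and blastocysts, where the level of F8 to F10 was 0.424 and 0.201 times that of F3 to F5 in morulae and 0.274 and 0.372 times in blastocysts. Rank correlations were -0.574 in morulae (permutation adjusted p = 0.254) and -0.651 in blastocysts (permutation adjusted p = 0.0765).

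Trends passed the test in 7 of 21 profiles of members that reached a mean of 1 CPM. In GV 1 member rose and 1 fell, where 17% of the genes tested rose and 19.8% fell. In MII 1 fell, against 12.5%. In 2-cell embryos 1 rose and 1 fell, against 9.66% and 10.8%, and in 8-cell embryos 2 fell, against 10.7%. No member passed in morulae (3 tested; 0.852% of all genes rose and 0.782% fell) or in blastocysts (2 tested; 5.63% rose and 1.92% fell) by the permutation test, where unadjusted p-values were 0.0223 for FOXO3 in morulae and 0.00781 for FOXO3 in blastocysts. With gradient A alone 0 of the 7 trends passed, and with gradient B alone 2 did, FIGLA in GV and LHX8 in 2-cell cells.

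Genes that work with these factors, and genes they are known to control, were taken as 5 lists. From 2-cell to 8-cell the transcripts of 10 of 13 targets fell, whereas the lists of partners and of the FOXO pathway held genes in both directions. All values in this part are mean transcriptome CPM over 3 libraries unless stated, and the share of all genes called at this step is given above.

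**Figure D4:**
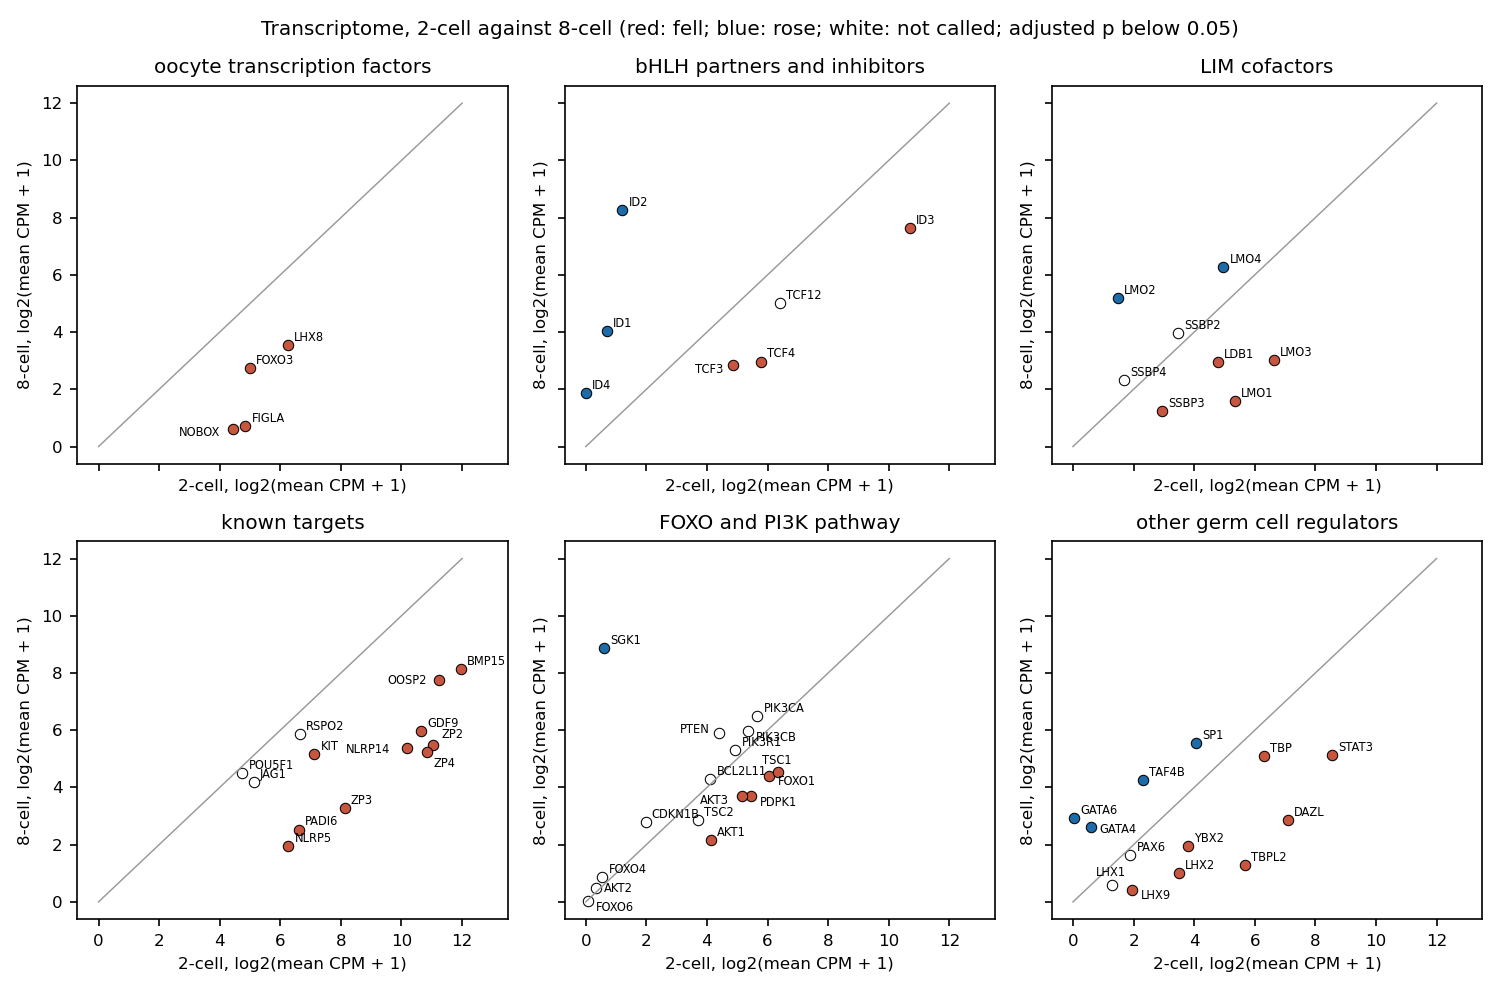
Mean transcriptome level of each listed gene in 8-cell embryos against that in 2-cell embryos, both as log2(mean CPM + 1), with a grey line of equal level. Red points fell, blue points rose and white points did not pass the edgeR test. Of 13 targets, 10 lie below the line as red points, and SGK1, ID2 and GATA6 lie above it as blue points.

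Of 13 known targets tested, 10 fell, 0 rose and 3 did not pass, with a median log2 difference of -4.35. ZP1 was listed too but was not analysed here. All 5 oocyte markers also fell at this step, with a median of -4.45. GDF9, BMP15 and ZP3 are on both lists, whereas MOS and DAZL are not listed targets, so the fall was not limited to the targets. ZP4 and ZP2, which encode glycoproteins of the zona pellucida and are controlled by FIGLA, fell most, from 1829 to 36.6 CPM (log2 difference -5.64, SE 0.84, adjusted p = 6.97e-06) and from 2092 to 44.1 CPM (-5.57, SE 0.72, adjusted p = 8.09e-07). The 3 that did not pass, named after their values were seen, were JAG1 (-0.97, adjusted p = 0.0825), RSPO2 (-0.79, adjusted p = 0.125) and POU5F1 (-0.24, adjusted p = 0.551). At the other steps of the transcriptome 1 of 13 targets fell from GV to MII (10.9% of all genes fell), 2 fell from MII to 2-cell (6.62% of all genes), 8 fell and 1 rose from 8-cell to morula (8.04% and 7.39%), and 2 fell and 2 rose from morula to blastocyst (12.5% and 10.8%). On polysomes 12 of the 13 fell from 2-cell to 8-cell and 1 rose, POU5F1, from 46.6 to 91.9 CPM (0.98, adjusted p = 0.0470), and the median was -3.30 against -0.26 over all genes.

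The 7 bHLH partners and inhibitors split, with 3 up, 3 down and 1 not called (median -1.40). Among the E-proteins that pair with FIGLA, TCF3 fell from 28.0 to 6.28 CPM (-2.16, adjusted p = 0.00063) and TCF4 from 54.4 to 6.83 CPM (-2.99, adjusted p = 0.000317), and TCF12 went from 83.3 to 31.5 CPM without passing (-1.40, adjusted p = 0.257). ID proteins bind E-proteins and keep them off DNA. ID3 fell from 1665 to 199 CPM (-3.06, adjusted p = 0.00126), ID2 rose from 1.30 to 303 CPM (7.85, adjusted p = 3.46e-11) and ID4, at 0 in all 2-cell libraries, was at 2.69 CPM in 8-cell embryos (adjusted p = 0.00196).

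The E-proteins also differed in their place relative to the transcriptome. TCF3 was higher in polysome pools in GV (1.96, adjusted p = 0.00322), MII (1.82, adjusted p = 0.00367), 2-cell (2.83, adjusted p = 6.33e-05) and 8-cell embryos (3.07, adjusted p = 2.66e-05). TCF4 was lower in them in GV (-1.82, adjusted p = 0.0363), MII (-2.62, adjusted p = 0.00302), 2-cell embryos (-2.89, adjusted p = 0.00177) and morulae (-4.30, adjusted p = 0.000528), and its blastocyst pools were at 0. TCF12 was lower in the pools in 2-cell embryos (-3.17, adjusted p = 0.0435) and passed at no other stage.

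LIM cofactors bridge or compete for LIM-homeobox proteins such as LHX8. Of 8 tested, 2 rose and 4 fell (median -0.74). LDB1, the bridging cofactor, fell from 26.6 to 6.68 CPM (-1.99, adjusted p = 3.83e-05), LMO1 from 39.6 to 2.04 CPM (-4.28, adjusted p = 7.95e-09) and LMO3 from 98.7 to 7.12 CPM (-3.79, adjusted p = 8.05e-06), while LMO2 rose from 1.77 to 35.5 CPM (4.32, adjusted p = 1.60e-05) and LMO4 from 30.2 to 75.6 CPM (1.32, adjusted p = 0.00584). LDB2 was not tested, as its counts were under the filter.

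Of the 16 genes of the FOXO and PI3K pathway, 1 rose, 5 fell and 10 did not pass (median 0.30). SGK1, a kinase that like AKT phosphorylates FOXO3, rose from 0.517 to 471 CPM (9.82, adjusted p = 1.92e-07). AKT1 fell from 16.4 to 3.47 CPM (-2.24, adjusted p = 0.00306) and TSC1, a brake on mTOR signalling, from 81.0 to 22.2 CPM (-1.86, adjusted p = 9.86e-05). In 8-cell embryos 8 of the 16 were higher and 5 lower in polysome pools than in the transcriptome, where 28.0% of all genes were higher and 31.0% lower.

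Among 13 other germ cell regulators 4 rose and 7 fell (median -1.46). TBPL2, the oocyte form of the TATA-binding protein, fell from 49.8 to 1.46 CPM (-5.09, adjusted p = 0.000284) and DAZL, an RNA-binding protein of germ cells, from 136 to 6.20 CPM (-4.45, adjusted p = 0.00235). GATA6 and GATA4, which act in the hypoblast and in somatic cells of the gonad, rose from 0.0251 to 6.59 CPM (7.66, adjusted p = 8.53e-07) and from 0.510 to 5.12 CPM (3.31, adjusted p = 0.0153).

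The likeness of patterns was described by Pearson's r of log2(CPM + 1) over the 18 transcriptomes, which hold 3 libraries of each of 6 stages, so that r mainly follows the stage means. FIGLA was most like MZB1 (r = 0.994), CSH2 (0.987) and CCL3 (0.986). NOBOX was most like NOTO (0.986), CCDC87 (0.985) and SMURF1 (0.984). LHX8 was most like PGM2L1 (0.978), SOX30 (0.971) and SPESP1 (0.970), and FOXO3 was most like ACAD11 (0.956), HAS2 (0.954) and SPRED2 (0.948).

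Among the members, r was 0.932 for FIGLA and LHX8, 0.890 for NOBOX and LHX8, and 0.880 for FIGLA and NOBOX. It was lower for FOXO3, at 0.723 with LHX8, 0.691 with NOBOX and 0.585 with FIGLA. SPRED2, for instance, had the FOXO3 course of 22.6 CPM in GV, 109 in MII, 91.4 in 2-cell and 11.4 in 8-cell transcriptomes, and NOTO had the NOBOX course of 16.8, 4.76, 29.2 and 0.637 CPM at the same stages.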

How the data were processed

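Per the file headers, the deposited table holds 120 fraction and 18 transcriptome libraries over 16706 gene symbols. The authors made Smart-seq libraries, which prime on poly(A) tails, quantified reads with Salmon and deposited expected counts without normalization; 11.65% of values are not whole. The submitters' processing notes name the genome build UMD3.1, whereas the methods name another assembly, so no coordinates are given. No transcript lengths were used, and levels are not compared per length. No unmapped column was left, and in 0 of 78 pairs of replicate libraries were the values identical.

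Counts were rounded. Polysome pools (F8 to F10 summed) and transcriptomes, 30 libraries in 12 groups, were fitted in 1 edgeR 4.0.16 quasi-likelihood model (R 4.3.3, limma 3.58.1) with TMM factors and filterByExpr. Two-sided p-values received Benjamini-Hochberg adjustment over 14612 genes, with calls at an adjusted p below 0.05. The fraction trend was Spearman's rank correlation over F3 to F10 (16 libraries), with 100000 permutations (Python 3.11.15, numpy 2.4.6, pandas 2.3.3, scipy 1.17.1), adjusted over genes with a mean of at least 1 CPM. The scripts were tested on simulated data. Alternatives were the likelihood ratio test, DESeq2 1.42.0, other scaling, filters and pools, a replicate block, and leaving out each library. Floors are 3 counts of a library and cover counting error only.

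The genes named are the members, the E-proteins and LIM cofactors, at most the 2 largest called changes per direction in each list from 2-cell to 8-cell, and the 3 genes most like each member. Members and lists were chosen with earlier results of these data known. Letters of gradients and transcriptomes did not pair the samples.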

Additional observations from a re-analysis of the deposited data

Results flagged for a closer look

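Between consecutive stages, 4 changes in the difference between polysome pools and transcriptome passed the test of that difference itself, an interaction term in edgeR. They were 3.41 for FIGLA from GV to MII (adjusted p = 0.0320), 2.86 for NOBOX from 2-cell to 8-cell (adjusted p = 0.0379), -3.65 for NOBOX from 8-cell to morula (adjusted p = 0.0196) and -4.05 for LHX8 from 8-cell to morula (adjusted p = 0.0106), all on the log2 scale. The morula pools of NOBOX and LHX8 held 33 and 411 counts and 0 and 12 counts in gradients A and B. NOBOX transcriptomes A, B and C held 8, 0 and 10 counts in 8-cell embryos and 8, 3 and 6 counts in morulae, near the floor of 3 counts. With F9 and F10 in place of F8 to F10, the last 3 were 2.59, -2.996 and -1.79, and none of these 3 passed (adjusted p = 0.0796, 0.0591 and 0.382). With F7 to F10, the FIGLA value was 3.28 and did not pass (adjusted p = 0.0530). FIGLA and NOBOX shifted the same way in free RNA and monosomes at these steps, so their changes were not limited to polysomes.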

How the results depend on the processing

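Over all alternatives for single genes, 3426 values kept their side of the threshold (a change of sign between values that both missed it is not counted), 42 newly passed, 99 no longer passed and 8 reversed. Over the 4 members, 7 transcriptome steps passed (5 to 8 with 1 library left out), 16 comparisons of pools with transcriptome (14 to 18), 8 polysome steps (7 to 8) and 4 interactions (3 to 6). With the pools fitted alone, 4 polysome steps passed, those lost being FIGLA from MII to 2-cell, LHX8 from 2-cell to 8-cell and from 8-cell to morula, and NOBOX from morula to blastocyst, and with pools of F9 and F10, 1 interaction passed. Of the 7 trends, 4 passed over F1 to F10, and 0 to 2 with 1 gradient left out. Those lost over F1 to F10 were FIGLA in GV oocytes, LHX8 in 2-cell embryos and NOBOX in 8-cell embryos. The 8 reversals were of low counts: FIGLA in blastocysts was 2.17 with pools of F7 to F10 and 1.54 with all fractions. FIGLA in morulae was 4.60 in free RNA, 5.12 in monosomes and 4.48 in all fractions, NOBOX in blastocysts was 4.53 and 4.21 in free RNA and monosomes, and the 2-cell to 8-cell interaction of FIGLA was 0.04 and ranged from -3.19 (without 8-cell pool B) to 0.94 with 1 library left out, and to 1.19 with pools of F7 to F10. The comparisons of free RNA, monosomes and all fractions were added after the data were seen.

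With a replicate block, FIGLA lost its MII to 2-cell polysome step (-2.49, adjusted p = 0.0715) and its GV to MII interaction (3.23, adjusted p = 0.0561), and the 2-cell trend of NOBOX had an adjusted p of 0.0514. Same-letter deviations of transcriptomes correlated between -0.345 and 0.138 across stages, and gradient letters were not compared across stages. Scaling by library totals alone moved the median of all genes by -0.29 from GV to MII and 0.47 from MII to 2-cell in transcriptomes, with 461 up and 2181 down against 1128 and 1596, and 1809 and 486 against 950 and 968. It also moved the numbers up and down in polysome pools to 230 and 648 from 450 and 344 (GV to MII), to 766 and 468 from 502 and 762 (MII to 2-cell) and to 2096 and 3294 from 2781 and 2629 (8-cell to morula), in the 8-cell to morula interaction to 815 and 1004 from 1030 and 791, and in blastocyst pools against transcriptomes to 2377 and 3588 from 2926 and 2934. No member call reversed under that scaling. FIGLA lost its MII to 2-cell polysome step (adjusted p = 0.0825) and NOBOX its 2-cell to 8-cell interaction (adjusted p = 0.0514), and NOBOX from GV to MII in transcriptomes (-1.69, adjusted p = 0.0418) and FOXO3 from 8-cell to morula in pools (-2.26, adjusted p = 0.0478) newly passed. Libraries of morulae and blastocysts limit values of FIGLA, NOBOX and LHX8 to a few counts. The causes were not tested.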
